A study of Homo sapiens with 24 samples.

Results

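A pair of kinase inhibitors that act on neighbouring signalling routes were set directly against each other in AGS, an established cell line from a human gastric adenocarcinoma. The first was (5Z)-7-oxozeaenol (oxozeaenol), an inhibitor of the kinase TAK1 (MAP3K7), and the second was PD0325901, an inhibitor of MEK. The members are the 8 libraries whose titles name either inhibitor alone, 4 for each, of 24 libraries in the series. All cells carry the label WT for genotype and were harvested 24 h after oxozeaenol at 0.5 µM or PD0325901 at 0.035 µM. These concentrations differ, so every difference is between the treatments as given. The other 16 libraries, 4 for each group, are a control, PI103 (an inhibitor of PI3 kinase and mTOR) at 0.7 µM, and PI103 combined with either oxozeaenol or PD0325901. Each combination held both inhibitors at 50% of these concentrations. Whether the control received vehicle is not stated in the labels, and the model is a single cell line. The series title places the data in a study of how these inhibitors alter metabolism, and the comparison asks which genes set the TAK1 inhibitor apart from the MEK inhibitor.

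MEK phosphorylates and activates the kinases ERK1 and ERK2, which switch on immediate-early and ETS-family transcription factors, cyclin D1 and their own negative feedback genes, the DUSP phosphatases and the Sprouty and Spred proteins. TAK1 lies downstream of receptors for TGF-beta, BMP, interleukin-1 and TNF, and passes their signals to JNK, p38 and the IKK complex, which releases NF-kB. Because ERK output falls steeply when MEK is blocked, feedback genes of the pathway are commonly used as readouts of MEK inhibitors.

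The 8 libraries held 38.1 to 74.0 M counts in genes, and 15645 to 18263 genes had at least 1 count, with the highest number in oxozeaenol replicate 2. On principal components of the 8 libraries, the first held 47.8% of the variance and separated the treatments: PD0325901 libraries lay between -54.3 and -14.7 and oxozeaenol libraries between 24.8 and 33.9. PD0325901 replicate 2 stood apart from its group at -54.3, and oxozeaenol replicate 4 stood apart on the second component, at -39.1. Oxozeaenol replicate 4 also had the largest shares of reads outside genes (8.57%) and without a unique alignment (6.06%). The epithelial markers EPCAM, KRT8, KRT18 and KRT19 were above 400 CPM (counts-per-million, scaled for library composition) in all 24 libraries. CLDN7 lay between 308 and 507 CPM, ELF3 between 153 and 465 CPM and CDH1 between 11.6 and 22.7 CPM. Of the 9 gastric markers, 8 are in the table and 5 of these were under 1 CPM in every library, among them GKN1, GKN2 and MUC6. TFF1 lay between 3.72 and 17.5 CPM over the 24 libraries and PGC between 1.3 and 13.4 CPM, while CLDN18 reached 1.25 CPM. The highest PGC value was 13.4 CPM with PD0325901 and 3.27 CPM with oxozeaenol. The 6 endothelial markers were all under 1 CPM, as were 7 of 9 leukocyte and 6 of 9 fibroblast markers, among them PTPRC, CD3E, COL1A2 and DCN. The leukocyte sum, 314 to 454 CPM with PD0325901 and 252 to 366 CPM with oxozeaenol against 38.8 to 49.4 CPM in control, was nearly all lysozyme (LYZ). The fibroblast sum, 62.5 to 91.1 CPM with PD0325901 and 37.6 to 46.6 CPM with oxozeaenol, was mostly PDGFRA and COL1A1, against 61.1 to 83.4 CPM in control. Whether these sums bear on the results was not tested. In bulk RNA, fewer cells in a given state and less RNA per cell cannot be told apart.

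Of 13947 genes tested with edgeR's quasi-likelihood test, 3976 (28.5%) differed between the inhibitors at a Benjamini-Hochberg adjusted p under 0.05, which is what "called" means throughout. Oxozeaenol gave the higher level for 1874 genes (13.4%) and the lower for 2102 (15.1%). Each count of called members of a list below is to be read against these shares. Most differences were small. The median absolute log2 difference was 0.49 among called genes and 0.23 among all genes, and 578 called genes passed a log2 difference of 1, of which 219 were higher and 359 lower with oxozeaenol. Beyond a difference of 2 there were 34 higher and 84 lower genes. The 4 oxozeaenol and 4 PD0325901 libraries did not overlap for 3018 genes (21.6%). Without PD0325901 replicate 2 the count of called genes was 2385, without both libraries that stand apart it was 2239, and in a fit of the 8 libraries alone it was 2348. All differences below are oxozeaenol minus PD0325901 on the log2 scale with the standard error (SE) of the fit.

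To place these differences, each inhibitor was also compared with control, and since both comparisons share the control libraries their resemblance was not tested. Of the 3976 called genes, 1397 had been moved the same way by both inhibitors, and 1116 of these lay farther from control with PD0325901 against 281 farther with oxozeaenol. A further 705 genes were lowered and 703 raised past the threshold by PD0325901 and not by oxozeaenol, and 356 were lowered and 379 raised past it by oxozeaenol and not by PD0325901. In 79 genes the inhibitors moved the level in opposite directions, 50 of them down with oxozeaenol and up with PD0325901. The remaining 357 were called against control for neither.

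Several named outputs of ERK were lowered by both inhibitors, and further by PD0325901. DUSP6, the ERK-specific phosphatase, was at 115 to 148 CPM in control, 3.71, 1.72, 4.24 and 4.75 CPM in the PD0325901 libraries and 26.5, 33.4, 17.3 and 12.8 CPM in the oxozeaenol libraries. The 3 groups did not overlap, and the difference was 2.64 (SE 0.30, adjusted p 1.41e-06). In GENCODE release 29, 40.5% of the exon length of DUSP6 overlaps a gene on the opposite strand, so its count is uncertain if strand was not used. DUSP4, a nuclear phosphatase of ERK, was at 97.6, 63.7, 103 and 115 CPM with PD0325901 and 221, 206, 183 and 174 CPM with oxozeaenol, from 359 to 451 CPM in control, a difference of 1.05 (SE 0.17, adjusted p 0.000107). Not all phosphatases followed: of 8 tested, 4 were higher with oxozeaenol, and DUSP10 and DUSP8, which act mainly on p38 and JNK, were lower, with differences of -0.89 and -0.45. The higher calls numbered 2 without PD0325901 replicate 2 or 4, or without oxozeaenol replicate 1 or 3. Over all genes 13.4% were higher and 15.1% lower.

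The Sprouty and Spred genes, which restrain receptor tyrosine kinase signalling to RAS and RAF, gave 4 higher and 0 lower of 6 tested, with a median difference of 0.71 against 0.01 over all genes tested. SPRY4 was at 3.32, 1.17, 2.58 and 3.19 CPM with PD0325901 and 16.9, 12.4, 11.9 and 11.4 CPM with oxozeaenol, from 39.2 to 48.9 CPM in control. All oxozeaenol libraries exceeded all PD0325901 libraries, all control libraries exceeded both, and the difference was 2.36 (SE 0.28, adjusted p 2.17e-06). SPRED1 differed by 1.66 (SE 0.26), SPRED2 by 0.65 (SE 0.17) and SPRY1 by 0.76 (SE 0.11). Against control, SPRY1 was lowered by PD0325901 (-0.62, adjusted p 4.42e-05) and had a value of 0.14 with oxozeaenol (adjusted p 0.326).

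Among ERK-linked ETS transcription factors, the PEA3 subfamily stood out. ETV4 was at 56.3 to 74.3 CPM in control, 1.5, 0.343, 1.35 and 1.27 CPM with PD0325901 and 17.7, 15.8, 13 and 4.82 CPM with oxozeaenol. Its lowest value in each group came from the library that stands apart there, the groups still did not overlap, and the difference was 3.52 (SE 0.41, adjusted p 2.56e-06), the largest among higher genes with at least 5 CPM and no overlap. ETV5 was at 13.7, 1.49, 9.32 and 8.44 CPM with PD0325901 and 63.7, 58.3, 42.1 and 35.9 CPM with oxozeaenol, a difference of 2.61 (SE 0.47, adjusted p 0.000477). ETV1 differed by 3.03 (SE 0.46) at under 1 CPM in both groups. ELF3, an epithelial ETS factor, went the other way, at 346, 465, 359 and 299.5 CPM with PD0325901 and 191, 192, 189 and 153 CPM with oxozeaenol (-1.02, SE 0.12). Of the 11 ETS genes tested, 5 were higher and 2 lower, against 13.4% higher and 15.1% lower over all genes. The lower count was near the share of all genes.

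Immediate-early genes, the first transcripts to appear after growth factor stimulation, gave 7 higher and 4 lower of 30 tested. Over all genes 13.4% were higher and 15.1% lower, so the lower count was near the share of all genes. The lower calls were 2 without PD0325901 replicate 2, without oxozeaenol replicate 3 or 4, and without both libraries that stand apart. The higher ones included PHLDA1, at 28.3, 32.97, 33.9 and 35.3 CPM with PD0325901 and 94.8, 92.2, 65.8 and 62.96 CPM with oxozeaenol (1.28, SE 0.15, adjusted p 7.83e-07). FOSL1, an AP-1 subunit stabilised by ERK, was at 4.24, 2.16, 3.498 and 3.06 CPM with PD0325901 and 13.3, 9.87, 8.71 and 5.31 CPM with oxozeaenol (1.52, SE 0.26, adjusted p 0.00019). EGR1, a zinc-finger factor induced by ERK, was at 157 to 249 CPM in control, 2.55, 0.7899, 1.53 and 1.71 CPM with PD0325901 and 11.6, 10.4, 3.49 and 1.92 CPM with oxozeaenol. Its difference was called (2.09, SE 0.50, adjusted p 0.00429) although oxozeaenol replicate 4 lay inside the PD0325901 range, and both inhibitors left it far below control. The 4 lower genes were KLF2, JUN (-0.84, SE 0.13), KLF6 (-0.34, SE 0.12) and ZFP36 (-0.33, SE 0.12). KLF2, a zinc-finger factor, was at 16.2 to 32.2 CPM in control, 20.7, 18.6, 20.5 and 18.6 CPM with PD0325901 and 4.82, 6.33, 5.14 and 4.48 CPM with oxozeaenol. It was lowered by oxozeaenol (-2.11 against control, adjusted p 2.71e-10) and was not called with PD0325901 (-0.20, adjusted p 0.295). Between the inhibitors the difference was -1.91 (SE 0.17, adjusted p 1.42e-08).

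**Figure D1:**
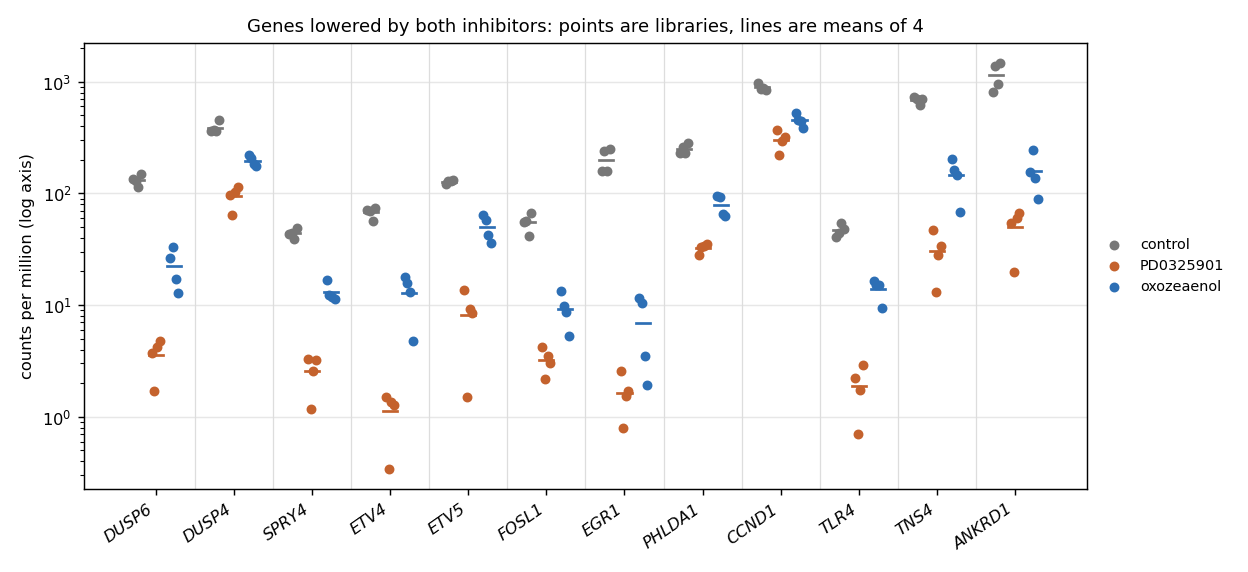
Level of 12 genes that both inhibitors lowered, in CPM on a log axis, in the 4 control, 4 PD0325901 and 4 oxozeaenol libraries; each point is a library and each line the mean of its group. Oxozeaenol libraries lie between control and PD0325901, without overlap except for EGR1, where oxozeaenol replicate 4 (1.92 CPM) lies within the PD0325901 range.

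Further genes with large differences had the same order of groups. TLR4, a receptor for bacterial lipopolysaccharide, was at 40.5 to 53.8 CPM in control, 2.21, 0.704, 1.74 and 2.92 CPM with PD0325901 and 16.3, 15.2, 15.2 and 9.44 CPM with oxozeaenol (2.89, SE 0.32, adjusted p 1.23e-06). TNS4, an adaptor of focal adhesions, was at 46.9, 13.1, 28.2 and 34.1 CPM with PD0325901 and 203, 163, 145 and 68.5 CPM with oxozeaenol, from 614 to 736 CPM in control (2.24, SE 0.35). ANKRD1, counted among YAP targets, was at 53.8, 19.9, 60.2 and 67.3 CPM and 157, 246, 139 and 88.6 CPM in the same order, from 802 to 1472 CPM (1.65, SE 0.31). MET, the receptor for hepatocyte growth factor, was at 49.8, 40.7, 34.4 and 37.96 CPM with PD0325901 and 106, 88.5, 72.7 and 82.9 CPM with oxozeaenol (1.11, SE 0.14). For TGFA, a ligand of the EGF receptor, the values were 23.2, 22.7, 21.6 and 18.9 CPM and 38.5, 38.4, 31.9 and 35.05 CPM (0.74, SE 0.085). In all 5 genes every oxozeaenol library exceeded every PD0325901 library. The receptor and ligand lists as a whole did not share this order. Receptor tyrosine kinases gave 3 higher and 4 lower of 16 tested, and EGFR-family ligands 1 higher and 1 lower of 5. Over all genes 13.4% were higher and 15.1% lower. Among the lower were FGFR4 (-0.52, SE 0.084) and NRG4 (-2.30, SE 0.44), the latter at means of 0.72 CPM with PD0325901 and 0.14 CPM with oxozeaenol.

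Genes of DNA replication were higher with oxozeaenol without exception in the list: 31 of 31 were called, against 13.4% of all genes tested. Their median difference was 0.62. The list medians against control had opposite signs, 0.35 with oxozeaenol (18 of 31 raised, 0 lowered) and -0.21 with PD0325901 (1 raised, 12 lowered). Of all 13947 genes tested against control, oxozeaenol raised 3590 and lowered 3642, and PD0325901 raised 4004 and lowered 4172. Single genes varied in which inhibitor moved them from control. MCM6, a subunit of the replicative helicase, was at 115 to 151 CPM in control, 134, 125, 146 and 128 CPM with PD0325901 and 222, 208, 218 and 198 CPM with oxozeaenol (0.67, SE 0.11, adjusted p 7.04e-05). PD0325901 libraries scattered around control, while oxozeaenol libraries were all above both groups. CDC6, which loads that helicase, was at 236 to 255 CPM in control, 130.3, 112, 143 and 128 CPM with PD0325901 and 218, 218, 204 and 181 CPM with oxozeaenol (0.68, SE 0.11, adjusted p 8.07e-05). Here PD0325901 lay below control (-0.93, adjusted p 9.36e-08), and oxozeaenol was not called against it (-0.25, adjusted p 0.0602). PCNA, the sliding clamp of DNA polymerases, was at 626 ± 174 CPM (SD, n = 4) with PD0325901 and 1139 ± 182 CPM (SD, n = 4) with oxozeaenol (0.86, SE 0.17). ORC6, POLE2, RFC3, GINS2 and POLE also differed by 0.80 or more, and the smallest difference was that of GINS4, 0.33 (SE 0.12). The groups overlapped for GINS4, CDT1 and RFC2 and for no other gene of the list. Without PD0325901 replicate 2, 26 of the 31 were called, without both libraries that stand apart 27, and leaving out any 1 of the 8 libraries kept the median between 0.56 and 0.66.

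Replication genes are classically driven by E2F factors, whose binding words lie close to the transcription start, so their promoters were searched for TTTCCCGC, TTTCGCGC, TTTGCCGC and TTTGGCGC on both strands. Sequences are from RefSeq on GRCh38.p14 and cover 250 bases before to 50 after each gene's start. A word was present in 17 of 28 replication promoters in the table (60.7%), against 5.36% of the 10536 promoters of genes tested and 3.33% of all 27305. The 250 bases before the start are shown for 2 replication genes, with the words in capitals. That of MCM6 (chr2:135876444-135876693, minus strand) holds 2 sites in each of which words on both strands overlap, and that of PCNA (chr20:5126623-5126872, minus strand) holds 1.
MCM6: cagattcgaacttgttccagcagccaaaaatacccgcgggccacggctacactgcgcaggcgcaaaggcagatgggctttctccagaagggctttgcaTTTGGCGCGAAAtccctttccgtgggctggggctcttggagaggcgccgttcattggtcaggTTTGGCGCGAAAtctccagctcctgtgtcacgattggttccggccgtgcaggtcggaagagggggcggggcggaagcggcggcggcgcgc
PCNA: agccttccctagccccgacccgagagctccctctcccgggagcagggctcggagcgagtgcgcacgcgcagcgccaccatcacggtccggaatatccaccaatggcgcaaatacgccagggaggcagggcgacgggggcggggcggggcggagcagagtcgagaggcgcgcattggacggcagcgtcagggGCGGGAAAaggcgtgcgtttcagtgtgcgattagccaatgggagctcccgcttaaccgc
Shorter windows of 28 bases show how alike the words are in other members: CDC6 (chr17:40287876-40287903, plus strand), GINS2 (chr16:85688968-85688995, minus strand), RFC3 (chr13:33818084-33818111, plus strand), MCM2 (chr3:127598403-127598430, plus strand), MCM7 (chr7:100101567-100101594, minus strand) and POLE (chr12:132687343-132687370, minus strand).
CDC6: gccattcggaTTTGGCGCgagcgcggct
GINS2: tctcgccgtgGCGGGAAAacggcggccg
RFC3: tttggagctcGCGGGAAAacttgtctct
MCM2: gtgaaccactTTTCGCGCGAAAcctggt
MCM7: agctcggaccGCGGGAAAcccggcgcct
POLE: gggtgggagcGCGCCAAAtttctcccct
Among all tested genes with a promoter in the table, 23.5% of the 565 with a word were higher with oxozeaenol and 11.9% lower, against 12.6% higher and 16.1% lower of the 9971 without one. Within the replication list the median difference was 0.67 for the 17 genes with a word and 0.62 for the 11 without. A match is a description of these letters and shows no binding. Of the other words searched, CRE (TGACGTCA), ETS (CGGAAGT) and AP-1 (TGANTCA), were in 7.14%, 17.9% and 3.57% of replication promoters, against 3.14%, 13.5% and 4.74% of the promoters of genes tested. The CArG box, the word of serum response factor, was also searched and was in 0 of the 28 replication promoters, against 1.12% of those of genes tested.

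**Figure D2:**
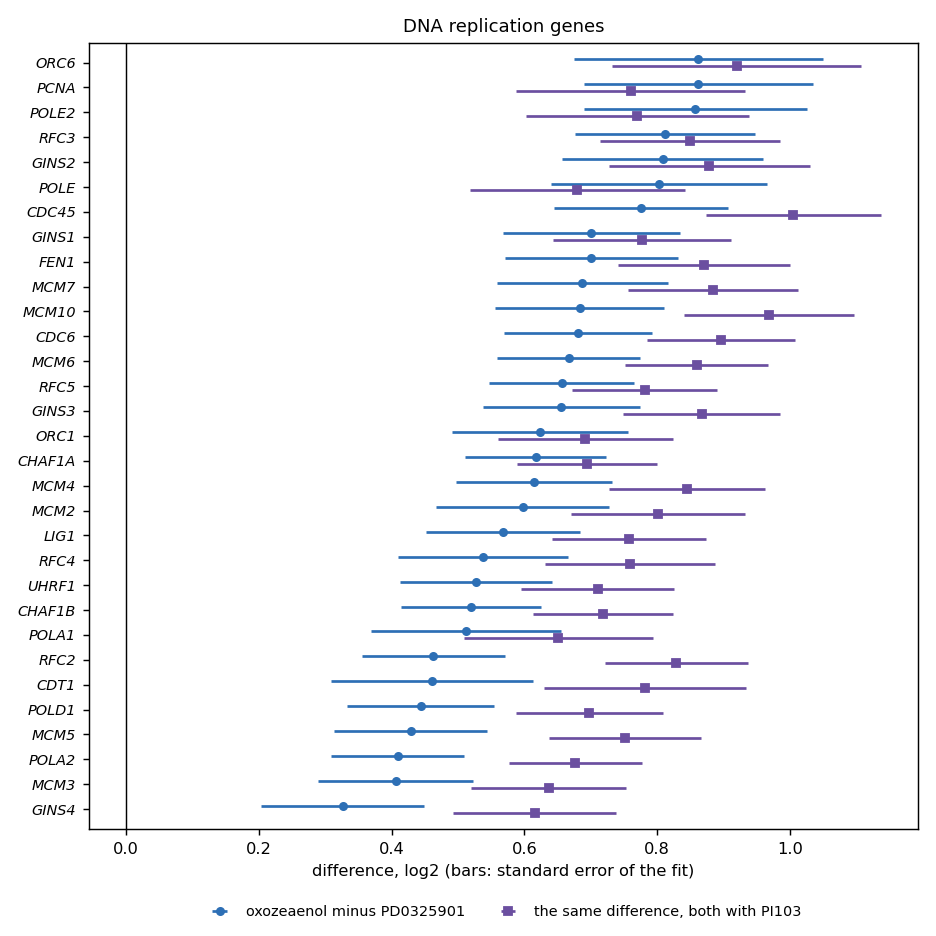
Log2 difference between oxozeaenol and PD0325901 for the 31 DNA replication genes (circles) and the same difference with PI103 present in both arms (squares), with the standard error of the fit as bars. All 62 points lie to the right of 0.

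Regulators of the step into S phase moved in the same direction. E2F1 differed by 0.78 (SE 0.14), CCNE2, which encodes cyclin E2, by 0.93 (SE 0.16), and CDC25A, the phosphatase that activates CDK2, by 0.62 (SE 0.11). CCND1, which encodes cyclin D1, was at 852 to 978 CPM in control, 372, 222, 292 and 318 CPM with PD0325901 and 529.7, 456, 445 and 386 CPM with oxozeaenol (0.59, SE 0.16, adjusted p 0.00647). Both inhibitors lowered it, and the oxozeaenol libraries were all above the PD0325901 libraries. Of 16 cyclin and CDK inhibitor genes tested, 8 were higher, against 13.4% over all genes. The higher calls were 4 without oxozeaenol replicate 1 and 5 without PD0325901 replicate 2. The 2 lower genes were both inhibitors of CDKs. CDKN2B (p15) was at 72.6 to 80.5 CPM in control, 104, 155, 98.2 and 103 CPM with PD0325901 and 33.96, 37.8, 39.2 and 40.8 CPM with oxozeaenol (-1.60, SE 0.13, adjusted p 2.48e-09). CDKN1C (p57) was at 12.7, 35.6, 17.6 and 14.9 CPM with PD0325901 and 3.34, 4.48, 5.14 and 5.89 CPM with oxozeaenol, both above control at 0.6802 to 1.22 CPM (-2.10, SE 0.27, adjusted p 5.07e-06). Neither pair of groups overlapped.

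Genes of mitosis were less uniform, with 10 higher and 0 lower of 30 tested and a median difference of 0.43. Over all genes 13.4% were higher and 15.1% lower. MAD2L1, a spindle checkpoint protein, was at 103, 69.04, 114 and 158 CPM with PD0325901 and 172, 213, 294 and 260.3 CPM with oxozeaenol (1.08, SE 0.23, adjusted p 0.00163). ECT2, required for cytokinesis, was at 180.5, 127, 192 and 205 CPM and 336, 349.9, 351 and 218 CPM in that order (0.83, SE 0.18, adjusted p 0.0017). CDK1 differed by 0.91 (SE 0.20) and MKI67, a marker of cycling cells, by 0.63 (SE 0.20). The count of calls leaned on single libraries. It was 3 without PD0325901 replicate 2, 4, 5 and 6 without oxozeaenol replicate 1, oxozeaenol replicate 3 or PD0325901 replicate 1, and 16 without oxozeaenol replicate 4.

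Genes of nucleotide and ribosome supply showed the same sign, and those of polyamine synthesis did so in part. Of 23 genes of purine and pyrimidine synthesis, 17 were higher with oxozeaenol and 0 lower, with a median of 0.38. Their medians against control were 0.015 with oxozeaenol and -0.34 with PD0325901. RRM2, the regulated subunit of ribonucleotide reductase, was at 264 to 299 CPM in control, 190.2, 137, 193 and 193 CPM with PD0325901 and 357, 298, 325 and 289 CPM with oxozeaenol (0.83, SE 0.14, adjusted p 0.000105). Another gene on the same strand covers 20.2% of the RRM2 exons. PPAT, the first committed enzyme of purine synthesis, differed by 0.68 (SE 0.12), and TYMS, thymidylate synthase, by 0.71 (SE 0.15). ODC1, the rate-limiting enzyme of polyamine synthesis, was at 374 to 426 CPM in control, 246, 203, 245 and 203 CPM with PD0325901 and 409, 386, 378 and 387 CPM with oxozeaenol (0.80, SE 0.088, adjusted p 3.58e-07). Oxozeaenol libraries thus fell within the control range and PD0325901 libraries below it. AMD1, which makes the aminopropyl donor for polyamines, was at 340.2, 300.4, 359.5 and 422 CPM and 535, 498, 593 and 509 CPM (0.59, SE 0.11). Over the polyamine list, 3 of 11 tested genes were higher, 0 lower and 8 not called, with a median of 0.18. Over all genes 13.4% were higher and 15.1% lower. The higher calls were 2 without PD0325901 replicate 1 or 2 or oxozeaenol replicate 3, and 5 without oxozeaenol replicate 4. The purine and pyrimidine count was 8 without PD0325901 replicate 2 and 11 without oxozeaenol replicate 1 or 3.

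Of 40 ribosome biogenesis genes, 22 were higher with oxozeaenol and 0 lower, with a median of 0.40. Over all genes 13.4% were higher and 15.1% lower. Both inhibitors lowered this list, by a median of -0.57 with oxozeaenol (33 lowered) and -0.94 with PD0325901 (38 lowered). Of all 13947 genes tested against control, 3642 were lowered by oxozeaenol and 4172 by PD0325901. NOP56, a core protein of box C/D ribonucleoproteins, was at 559.5 to 621 CPM in control, 359.9, 229, 382 and 377 CPM with PD0325901 and 506, 504, 568 and 479.9 CPM with oxozeaenol (0.61, SE 0.13, adjusted p 0.00103). GNL3 (nucleostemin) was at 156, 110.5, 182 and 172 CPM and 218, 234, 256 and 195 CPM (0.54, SE 0.11), and LYAR differed by 0.76 (SE 0.17). In both PD0325901 series replicate 2 was the lowest library. Without it 12 of the 40 were called, without oxozeaenol replicate 1 14, and without both libraries that stand apart 21.

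**Figure D3:**
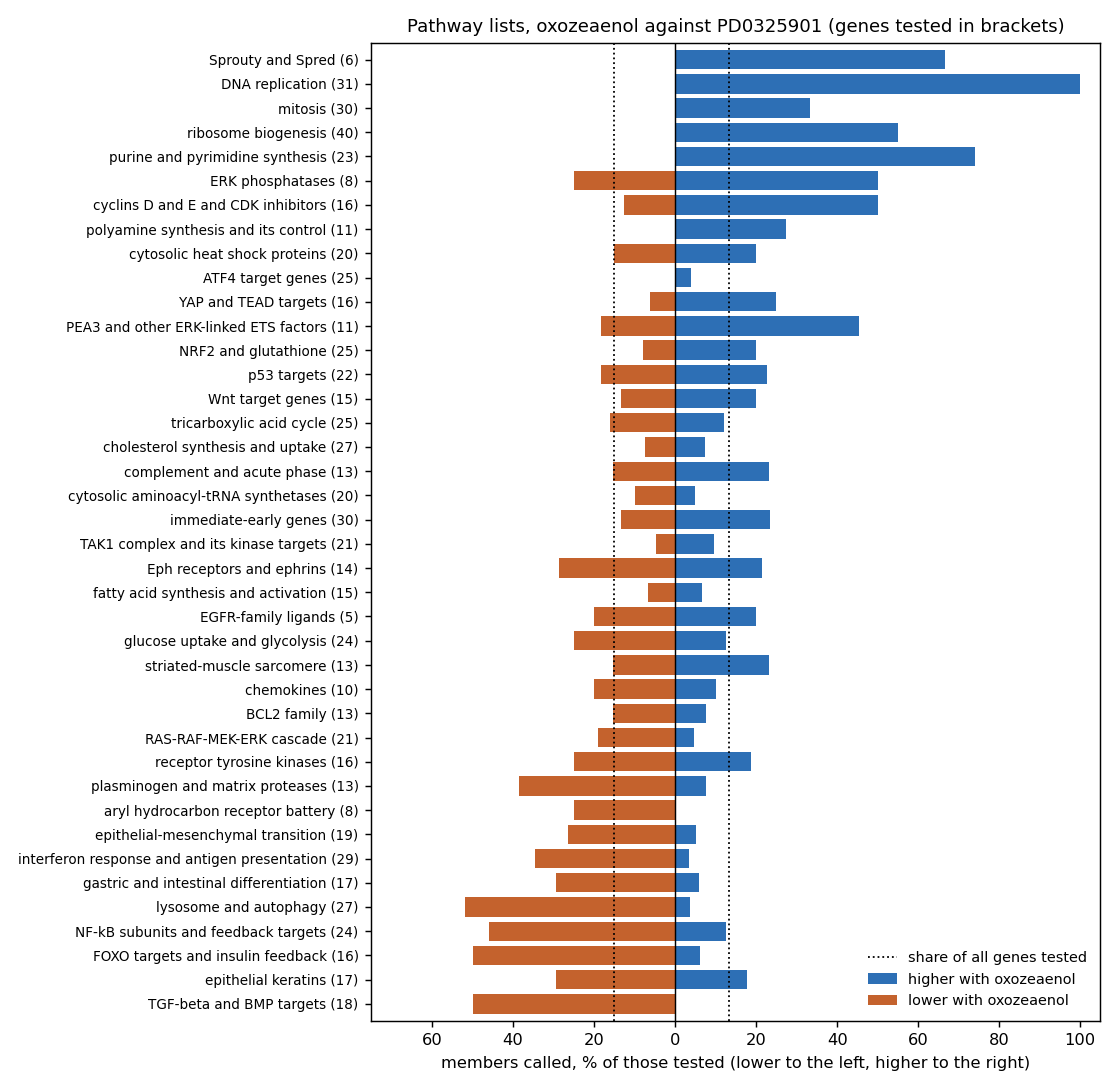
Share of the tested members of 40 pathway lists that were higher (right) or lower (left) with oxozeaenol than with PD0325901, in percent, with the number tested in brackets and lists ordered by median difference. Dotted lines mark the shares of all genes tested, 13.4% higher and 15.1% lower; DNA replication reaches 100% on the right, and the TGF-beta and BMP targets have no member on that side.

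On the other side, targets of TGF-beta and BMP signalling were lower with oxozeaenol. Of 18 tested genes of this list (5 of 23 did not pass the filter on low counts), 9 were lower and 0 higher, against 15.1% lower over all genes, with a median of -0.39. ID3, an inhibitor of basic helix-loop-helix factors that BMP signals induce through SMADs, was at 55.05 to 62.8 CPM in control, 52.98, 52.2, 67.98 and 48.97 CPM with PD0325901 and 18.2, 18.1, 26.2 and 15.4 CPM with oxozeaenol. PD0325901 libraries scattered around control, and all oxozeaenol libraries were below both groups (-1.52, SE 0.13, adjusted p 7.18e-09). ID1 was at 70.5 ± 18.1 CPM (SD, n = 4) with PD0325901 and 32.4 ± 9.55 CPM (SD, n = 4) with oxozeaenol (-1.13, SE 0.18), and ID2 at 188 ± 20.6 CPM (SD, n = 4) and 104 ± 18.4 CPM (SD, n = 4) (-0.85, SE 0.13). Feedback inhibitors of the pathway were lower too, with SKIL at -0.91 (SE 0.16), BAMBI at -0.66 (SE 0.09), SMAD6 at -0.62 (SE 0.17) and SMAD7 at -0.59 (SE 0.08). Leaving out any 1 of the 8 libraries left 9 to 11 lower calls.

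NF-kB subunits and feedback targets gave 11 lower and 3 higher of 24 tested, with a median of -0.27. Over all genes 15.1% were lower and 13.4% higher, so the higher count was near the share of all genes. NFKBIA, the inhibitor that NF-kB itself induces, was at 30.7 to 37.4 CPM in control, 49.96, 57.4, 53.7 and 50.04 CPM with PD0325901 and 36.5, 37.4, 38.1 and 35.02 CPM with oxozeaenol (-0.52, SE 0.077, adjusted p 2.15e-05). Here oxozeaenol libraries lay around control (0.09 against it, adjusted p 0.317), and PD0325901 raised the gene (0.62, adjusted p 1.75e-07). TNFAIP2, induced by TNF, was at 54.4, 65.3, 55.03 and 53.6 CPM with PD0325901 and 34.05, 30.8, 34.9 and 37.2 CPM with oxozeaenol (-0.74, SE 0.080, adjusted p 2.66e-07). TNFAIP3 (A20), a ubiquitin-editing brake on the pathway, was at 4.61, 6.83, 4.14 and 3.78 CPM and 3.08, 2.72, 1.45 and 2.82 CPM (-0.92, SE 0.21, adjusted p 0.00194). With oxozeaenol neither gene was called against control in edgeR (TNFAIP2 -0.13, adjusted p 0.186, and TNFAIP3 -0.04, adjusted p 0.894). PD0325901 raised TNFAIP2 by 0.61 and TNFAIP3 by 0.88. RELB, a subunit of the alternative pathway, was at 10.8 ± 2.95 CPM (SD, n = 4) with PD0325901 and 4.02 ± 0.413 CPM (SD, n = 4) with oxozeaenol (-1.43, SE 0.22), and CYLD, PTGS2, NFKB2 and BCL3 were also lower. The 3 higher genes were ICAM1 (0.48, SE 0.08), CSF1 (0.34, SE 0.13) and CD83 at under 1 CPM. IL8 (CXCL8), a chemokine both inhibitors reduced to traces from 4.97 to 14.7 CPM, was at 0.206, 0.343, 0.215 and 0.217 CPM with PD0325901 and 0.0696, 0.164, 0.199 and 0.0353 CPM with oxozeaenol and was not called (-1.11, SE 0.56, adjusted p 0.139).

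**Figure D4:**
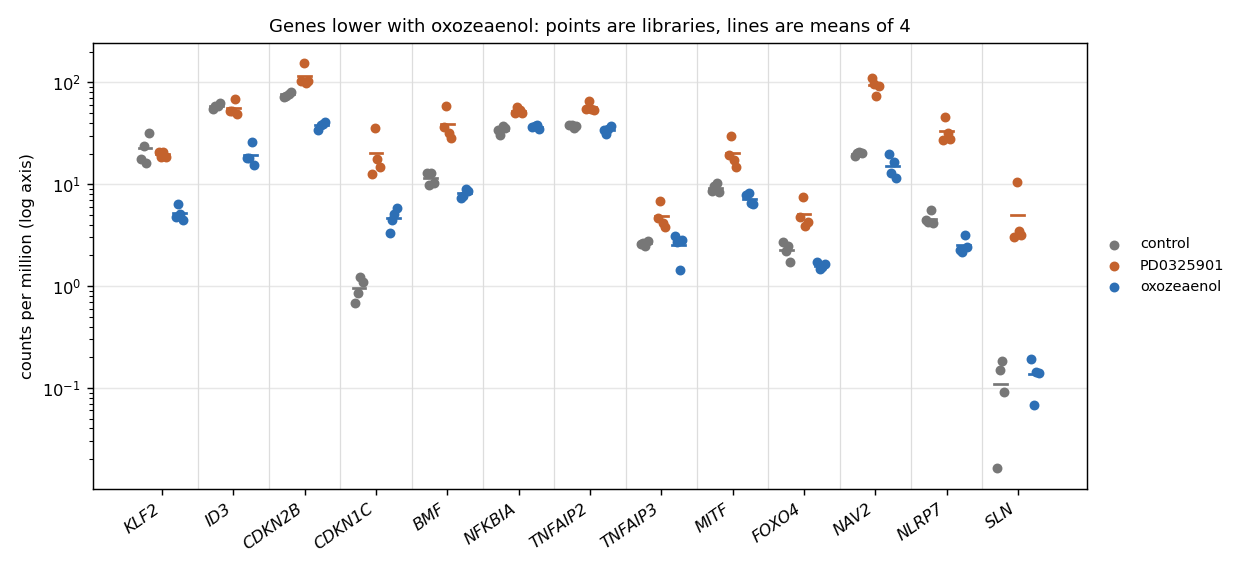
Level of 13 genes that were lower with oxozeaenol than with PD0325901, in CPM on a log axis, in the 4 control, 4 PD0325901 and 4 oxozeaenol libraries; points are libraries and lines group means. No oxozeaenol library reaches a PD0325901 library, and PD0325901 replicate 2 is the highest of its group for most of the genes, among them CDKN2B, BMF, NLRP7 and SLN.

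BMF, a regulator of cell death, and part of the interferon response genes were lower as well. BMF, a BH3-only activator of apoptosis, was at 9.76 to 12.9 CPM in control, 36.2, 58.6, 31.8 and 28.2 CPM with PD0325901 and 7.29, 7.64, 8.97 and 8.59 CPM with oxozeaenol (-2.26, SE 0.17, adjusted p 2.26e-09). It rose with PD0325901 (1.76) and fell with oxozeaenol (-0.50, adjusted p 0.0166). Of 13 BCL2-family genes tested, BMF and BBC3 (PUMA, -0.49, SE 0.14) were lower and BCL2L1 was higher, at 403, 331, 389.8 and 348 CPM with PD0325901 and 502, 521, 477 and 401 CPM with oxozeaenol (0.37, SE 0.088). The 2 lower of 13 are close to the 15.1% lower over all genes, so the family as a whole did not stand out. The BCL2L1 groups overlap, 43% of its exon length is antisense to another gene, and the call is lost in the fit of the 8 libraries alone. Interferon response and antigen presentation genes gave 10 lower and 1 higher of 29 tested, and 12 lower and 4 higher with the replicate number as a block. IRF9, a subunit of the interferon-stimulated factor ISGF3, was at 15.8 to 20.3 CPM in control, 34.5, 34.7, 37.9 and 34.9 CPM with PD0325901 and 18.1, 19.9, 20.6 and 22.5 CPM with oxozeaenol (-0.81, SE 0.10, adjusted p 3.46e-06), with 48.4% of its exons shared with another gene on the same strand. OAS1, an antiviral synthetase, was at 14.2, 12.6, 14.8 and 14.1 CPM and 8.56, 7.64, 9.59 and 7.55 CPM (-0.74, SE 0.10, adjusted p 1.31e-05). For CFB, complement factor B, the values were 6.86, 10.3, 6.42 and 5.23 CPM and 2.87, 2.72, 3.21 and 3.05 CPM, from 0.279 to 0.489 CPM in control (-1.28, SE 0.24, adjusted p 0.00034). A gene on the same strand covers 45.5% of the CFB exons. Both inhibitors raised CFB and OAS1, PD0325901 further.

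Lysosome and autophagy genes gave 14 lower and 1 higher of 27 tested, but only 8 lower without PD0325901 replicate 2 and 4 without both libraries that stand apart. Over all genes 15.1% were lower and 13.4% higher. MITF, a transcription factor of lysosomal genes, was at 8.45 to 10.3 CPM in control, 19.2, 30.1, 17.3 and 14.8 CPM with PD0325901 and 7.899, 8.12, 6.499 and 6.35 CPM with oxozeaenol (-1.49, SE 0.19, adjusted p 6.42e-06). WIPI1, which acts at the forming autophagosome, was at 14.4, 28.1, 19.2 and 14.7 CPM and 8.53, 9.02, 8.63 and 10.7 CPM (-1.05, SE 0.20), with 28.1% of its exons antisense to another gene. FOXO targets and insulin feedback genes gave 8 lower and 1 higher of 16 tested, and 4 lower without both libraries that stand apart. FOXO4 itself was at 4.76, 7.55, 3.87 and 4.28 CPM with PD0325901 and 1.71, 1.47, 1.53 and 1.66 CPM with oxozeaenol (-1.68, SE 0.20, adjusted p 1.06e-06), and TRIB1, a pseudokinase, at 46.9, 65.9, 48.8 and 46.97 CPM and 36.2, 30.1, 31.4 and 30.1 CPM (-0.71, SE 0.11). MMP14, a membrane-bound matrix protease, was at 492, 592, 452 and 403 CPM with PD0325901 and 284, 251, 250.3 and 242 CPM with oxozeaenol, from 199.5 to 225 CPM in control (-0.92, SE 0.10). HMOX1, haem oxygenase, was at 192, 219, 162 and 156 CPM and 70.7, 64.3, 67.5 and 80.7 CPM from 44.9 to 55 CPM in control (-1.36, SE 0.12, adjusted p 1.05e-08). Both inhibitors raised MMP14 and HMOX1, PD0325901 further. None of these groups overlapped.

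The largest falls with oxozeaenol relative to PD0325901 were in genes that PD0325901 had raised. SLN, sarcolipin, a regulator of the muscle calcium pump, was at 3.02, 10.4, 3.498 and 3.19 CPM with PD0325901 and 0.191, 0.0684, 0.142 and 0.141 CPM with oxozeaenol, against 0.0162 to 0.183 CPM in control, from which oxozeaenol was not called (0.23, adjusted p 0.808). The difference was -5.23 (SE 0.54, adjusted p 2.59e-07), and -4.62 without PD0325901 replicate 2, which held 10.4 CPM. NEURL3, an E3 ubiquitin ligase, was at 6.26, 15.1, 9.13 and 6.51 CPM and 0.974, 0.903, 0.7095 and 1.46 CPM, from 0.1296 to 0.428 CPM in control (-3.17, SE 0.32). HKDC1, a member of the hexokinase family, was at 5.999, 20.8, 5.22 and 5.88 CPM with PD0325901 and 0.696, 1.05, 0.568 and 0.388 CPM with oxozeaenol, from 2.83 to 4.97 CPM in control. PD0325901 replicate 2 was again far above the rest, and the difference was -3.77 (SE 0.60, adjusted p 8.76e-05) with it and -3.06 without it. LOC153469 was at 12.6, 14.4, 12.3 and 10.6 CPM and 0.4698, 0.561, 0.908 and 0.3705 CPM, from 2.49 to 3.22 CPM in control (-4.49, SE 0.22).

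Of the 50 genes that oxozeaenol lowered and PD0325901 raised, the 4 largest with at least 5 CPM and no overlap were LOC153469, HKDC1, NLRP7 and DPYSL3. HKDC1 belongs here only narrowly, since its rise with PD0325901 was just past the threshold (1.19, SE 0.51, adjusted p 0.0486, edgeR). That rise leaned on replicate 2 (20.8 CPM), and the other PD0325901 libraries (5.22 to 5.999 CPM) lay just above control (2.83 to 4.97 CPM). NLRP7, a NOD-like receptor protein, was at 4.13 to 5.55 CPM in control, 27.5, 46, 32.1 and 28.1 CPM with PD0325901 and 2.28, 2.16, 3.21 and 2.399 CPM with oxozeaenol (-3.75, SE 0.15, adjusted p 3.1e-15). DPYSL3, a cytoskeletal protein of growth cones, was at 282 to 329.8 CPM, 806, 952, 772 and 743 CPM and 138, 102, 147 and 52.2 CPM in the same order of groups (-2.90, SE 0.20, adjusted p 3.08e-10). NAV2 and SIPA1L2 belong to the same group. NAV2 was at 111, 95.97, 74.4 and 92.4 CPM with PD0325901 and 19.9, 12.8, 16.7 and 11.5 CPM with oxozeaenol (-2.62, SE 0.14), and SIPA1L2, a GTPase-activating protein for RAP1, at 80.9, 73.9, 59.2 and 74.1 CPM and 15.5, 12.3, 13.7 and 5.77 CPM (-2.61, SE 0.17). Control held 18.9 to 20.9 CPM of NAV2 and 32.3 to 34.6 CPM of SIPA1L2. In the opposite pattern, raised by oxozeaenol and lowered by PD0325901, were 29 genes. Among those with at least 5 CPM and no overlap, C1orf21 had the largest difference, at 2.96 to 4.02 CPM in control, 2.02, 1.68, 2.595 and 1.92 CPM with PD0325901 and 6.84, 7.09, 5.85 and 5.31 CPM with oxozeaenol (1.61, SE 0.16, adjusted p 1.19e-07). DSCC1, which helps load PCNA onto DNA, was at 23.3, 15.8, 27.2 and 28.3 CPM and 46.5, 50.6, 58.5 and 54.6 CPM around a control of 34.6 to 43.1 CPM (1.15, SE 0.16). IL17RB, a receptor for interleukin-25, differed by 1.18 (SE 0.18) and LRP8, a lipoprotein receptor, by 1.16 (SE 0.17). The group also holds 2 members of the replication list, RFC3 and GINS2, chosen here after their values were seen.

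Several genes were raised far more by oxozeaenol. SOX2, a transcription factor of foregut epithelium, was at 8.64 to 12.2 CPM in control, 10.9, 10.2, 13.6 and 19.6 CPM with PD0325901 and 43.7, 46.3, 39.6 and 40.6 CPM with oxozeaenol (1.64, SE 0.19, adjusted p 1.13e-06). KRT13, a keratin of stratified epithelia, was at 6.71 to 9.03 CPM, 5.72, 6.75, 9.59 and 7.397 CPM and 18.1, 22.2, 18.5 and 18.7 CPM in that order (1.39, SE 0.13, adjusted p 4.02e-08). In both genes PD0325901 was not called against control. SPP1, osteopontin, was at 0.7499, 0.412, 1.49 and 2.05 CPM with PD0325901 and 4.59, 6.53, 5.96 and 8.08 CPM with oxozeaenol, from 0.858 to 2.09 CPM in control (2.40, SE 0.33, adjusted p 1.32e-05). TTN, which encodes the sarcomere protein titin, was at 1.97, 1.79, 1.19 and 3.43 CPM and 7.88, 8.26, 6.67 and 17.4 CPM, against 0.105 to 0.186 CPM in control (2.27, SE 0.31, adjusted p 1.44e-05). Oxozeaenol replicate 4 held the highest value of TTN, and all groups stayed apart. Another sarcomere gene, TNNT2, was raised by both inhibitors to 8.12, 11.4, 7.48 and 6.901 CPM and 12.6, 12.02, 9.82 and 14.7 CPM, groups that overlap. Its difference of 0.54 (adjusted p 0.0404) is lost without any of 6 of the 8 libraries. TNNT1 went the other way (-0.58, SE 0.11), without overlap. The striated-muscle sarcomere list gave 3 higher and 2 lower of 13 tested, with a median of -0.098. Over all genes 13.4% were higher and 15.1% lower. GATA6, a transcription factor of gastric and intestinal epithelium, was lower with oxozeaenol than with PD0325901, at 132, 166, 135 and 137 CPM with PD0325901 and 83.2, 68.95, 76.6 and 82.7 CPM with oxozeaenol (-0.87, SE 0.10). Control held 54.9 to 69.6 CPM of GATA6, which rose by 0.34 with oxozeaenol and 1.21 with PD0325901. Exons of GATA6, TTN, KRT13, PHLDA1, CCND1 and LRP8 overlap another gene over 10.3% to 16.5% of their length.

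Metabolic lists outside nucleotide and polyamine synthesis gave calls in both directions, most of them at or below the share called over all genes, 13.4% higher and 15.1% lower. Cholesterol synthesis and uptake, which both inhibitors raised by medians of 0.84 (oxozeaenol) and 0.79 (PD0325901) against control, gave 2 higher and 2 lower of 27. TM7SF2, a sterol reductase, was among the lower, at 104, 137, 118 and 97.5 CPM with PD0325901 and 80.9, 85.6, 82.9 and 86.2 CPM with oxozeaenol (-0.44, SE 0.12, adjusted p 0.00597), and was not called without both libraries that stand apart. HMGCS1, an early enzyme of the pathway, was at 589, 1135, 812 and 730.0 CPM and 614, 652, 755 and 636 CPM and was not called (-0.30, SE 0.18, adjusted p 0.218). ATF4 target genes, lowered by medians of -1.49 with oxozeaenol and -1.70 with PD0325901, gave 1 call of 25, SLC38A2 (0.39, SE 0.14, adjusted p 0.0349), which is lost without any of 5 of the 8 libraries. Cytosolic aminoacyl-tRNA synthetases gave 1 higher and 2 lower of 20, fatty acid genes 1 and 1 of 15, and the tricarboxylic acid cycle 3 and 4 of 25, a share near that of all genes. When 1 of the 8 libraries was left out, the cycle gave 0 to 3 higher and 1 to 4 lower. Among these lists ELOVL6, a fatty acid elongase, was at 34.9, 29.4, 39.3 and 38.3 CPM with PD0325901 and 64.8, 62.3, 62.8 and 52.4 CPM with oxozeaenol (0.77, SE 0.11), and ACO1, the cytosolic aconitase, at 167, 231, 182 and 163 CPM and 136, 119, 119.8 and 96.7 CPM (-0.65, SE 0.12). Glucose uptake and glycolysis, the list with most calls among these, gave 3 higher and 6 lower of 24. The lower calls numbered 3 without oxozeaenol replicate 3 or 4, 9 without oxozeaenol replicate 1 and 0 without both libraries that stand apart. HK2, hexokinase 2, was at 30.97, 15.3, 23.3 and 25.5 CPM with PD0325901 and 49.99, 38.8, 40.98 and 27.6 CPM with oxozeaenol, from 103 to 118 CPM in control, and its groups overlap (0.73, SE 0.18, adjusted p 0.00399).

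Stress, adhesion and identity lists gave calls in both directions, as did all genes tested, with 13.4% higher and 15.1% lower. The lower counts of the heat shock, Wnt and p53 lists were near the latter share. Cytosolic heat shock proteins gave 4 higher and 3 lower of 20, among them HSPA8, the constitutive HSP70, at 2107, 1880.0, 2610.0 and 2855 CPM with PD0325901 and 3738, 3536, 4274 and 2883 CPM with oxozeaenol (0.61, SE 0.20), a call that is lost without any of 4 of the 8 libraries. When 1 library was left out, the heat shock list gave 1 to 8 higher and 0 to 3 lower, and without both libraries that stand apart 4 higher and 0 lower. It had 1 higher call without PD0325901 replicate 1 or 2 or oxozeaenol replicate 1 or 3, 2 without PD0325901 replicate 4 or oxozeaenol replicate 2, and 8 without oxozeaenol replicate 4. NRF2 and glutathione genes gave 5 higher and 2 lower of 25, with TXNRD1, thioredoxin reductase, at 162, 142, 139.5 and 134 CPM and 212, 232, 198 and 202 CPM (0.55, SE 0.089, adjusted p 6.78e-05) going against HMOX1 in the same list. The higher calls of that list were 1 without PD0325901 replicate 2, 3 without PD0325901 replicate 3 or oxozeaenol replicate 4, and 2 without both libraries that stand apart. Wnt target genes gave 3 higher and 2 lower of 15, and 1 lower without PD0325901 replicate 2 or oxozeaenol replicate 2. ZNRF3, a ubiquitin ligase that removes Wnt receptors, was at 28.01, 16.7, 19.7 and 25.1 CPM with PD0325901 and 53.5, 42.5, 41.98 and 45.2 CPM with oxozeaenol, against 44.9 to 49.4 CPM in control (1.03, SE 0.15, adjusted p 1.53e-05). The epithelial-mesenchymal list gave 1 higher and 5 lower of 19, with CDH2, N-cadherin, at 1.03, 1.32, 0.688 and 1.21 CPM and 0.261, 0.151, 0.114 and 0.0353 CPM (-2.88, SE 0.44, adjusted p 3.85e-05), close to the limit of detection. Eph receptors and ephrins gave 3 higher and 4 lower of 14, with EPHA1 at 97.7, 114, 99.5 and 95.9 CPM and 68.7, 59.95, 65.6 and 62.3 CPM (-0.67, SE 0.081). Targets of p53 gave 5 higher and 4 lower of 22, with 3 higher without PD0325901 replicate 2, and FAS, a death receptor, was at 14.4, 10.1, 15.3 and 18.1 CPM with PD0325901 and 17.97, 22.7, 25.7 and 27.2 CPM with oxozeaenol, groups that overlap (0.69, SE 0.15). Epithelial keratins gave 3 higher and 5 lower of 17, and 1 and 0 without both libraries that stand apart.

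Most signalling components were not called, as was the case for most genes tested. Over all genes 28.5% were called, 13.4% higher and 15.1% lower. MAP3K7, which encodes TAK1, was at 57.7, 67.98, 58.4 and 57.7 CPM with PD0325901 and 62.96, 63.7, 56.4 and 54.7 CPM with oxozeaenol and was not called (-0.02, SE 0.082, adjusted p 0.85). Of 21 tested genes of the TAK1 complex and its kinase targets, 2 were higher (MAPK9, 0.22, SE 0.068, and CHUK, 0.23, SE 0.09) and 1 lower (TAB1, -0.31, SE 0.085). MAPK9 loses its call without any of 4 of the 8 libraries and TAB1 without both libraries that stand apart. Of 21 genes of the RAS-RAF-MEK-ERK cascade, RPS6KA3, an ERK-activated kinase, was higher (0.46, SE 0.099), and SOS2, RASA1 and RPS6KA2 were among those lower, with differences of -0.37, -0.25 and -0.50. None of those 3 was called without both libraries that stand apart. MAP2K1 and MAP2K2, which encode MEK1 and MEK2, gave -0.17 (SE 0.08) and -0.15 (SE 0.10) with no call.

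The contrast was repeated in separate libraries, in which PI103 was present in both arms and each inhibitor was at 50% of its single concentration. These libraries carry the same replicate numbers, which the labels call batches, and the same numbers stood apart. On components of all 24 libraries, replicate 2 of PI103 with PD0325901 was at 63.4 on the first against 33.3 to 37.7 for the other 3 libraries, and replicate 4 of PI103 with oxozeaenol was at -29.9 on the third against -19.4 to -16.5. The latter also had 8.50% of reads outside genes. The settings are therefore not independent of each other in batch, and the part of this in their resemblance was not tested. With PI103, 4170 genes (29.9%) were called, 2176 higher and 1994 lower with oxozeaenol, and 2702 without replicate 2 of PI103 with PD0325901. Called in both settings were 2618 genes, 65.8% of the calls without PI103 and 62.8% of those with it, and all 2618 had the same direction. Of the 3976 genes called without PI103, 3898 had the same sign with it. The differences of the 13947 genes, which do not count as independent replicates, had a Pearson correlation of 0.76 and a Spearman correlation of 0.72. ETV4 differed by 5.00 (SE 0.42) with PI103, DUSP6 by 3.17 (SE 0.30), SPRY4 by 2.55 (SE 0.28), KLF2 by -1.32 (SE 0.16), ID3 by -0.82 (SE 0.13) and BMF by -1.90 (SE 0.17). DNA replication again gave 31 higher of 31, with a median of 0.78, ribosome biogenesis 35 of 40 and purine and pyrimidine synthesis 21 of 23. ATF4 targets gave 11 higher and 0 lower of 25 and aminoacyl-tRNA synthetases 8 and 0 of 20, where the contrast without PI103 had 1 call each in that direction; the difference between the settings was not called for any of them. Upper-quartile scaling moved the split with PI103 to 1637 higher and 2737 lower, and the median of all genes to -0.07.

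**Figure D5:**
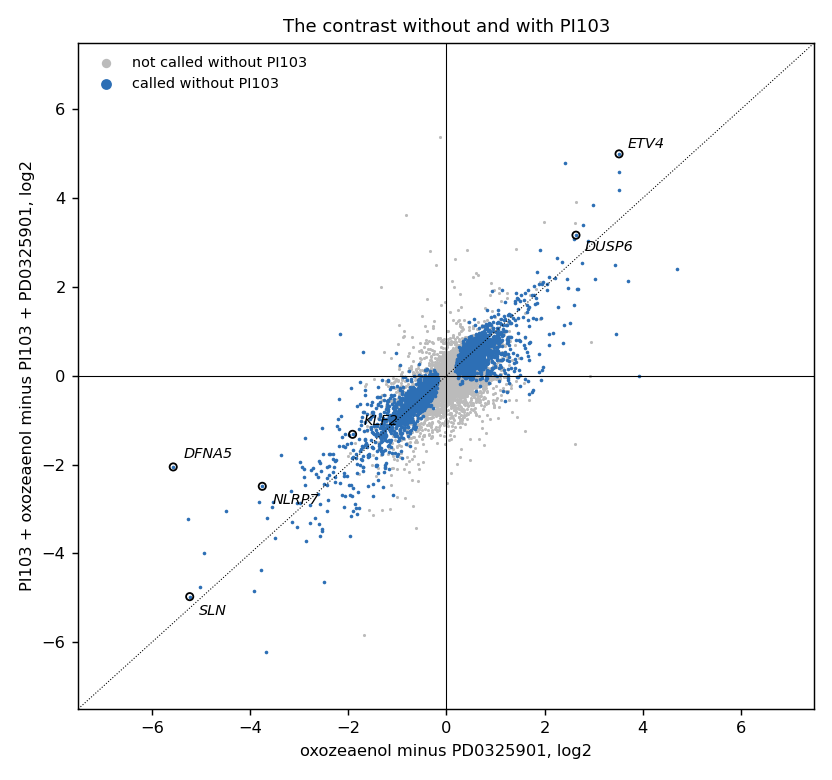
Log2 difference between oxozeaenol and PD0325901 for 13947 genes without PI103 (horizontal) and with PI103 in both arms (vertical); blue points were called without PI103, and the dotted line marks equal differences. Most blue points keep their sign, and DFNA5 and NLRP7 lie off the line.

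A test of the change in the contrast itself, with PI103 minus without, called 2 genes with edgeR, 7 with DESeq2 and 4 with the replicate number as a block. At an unadjusted p under 0.05 there were 599 genes, fewer than the 5% of genes tested that such a threshold passes with no change. DFNA5, a gasdermin that forms pores in the plasma membrane, was at 3.49, 5.32, 2.64 and 3.40 CPM with PD0325901 and 0.0696, 0.0958, 0.0851 and 0.0529 CPM with oxozeaenol, where the libraries held 3 to 7 reads. With PI103 it was at 2.37, 4.84, 1.75 and 2.14 CPM with PD0325901 and 1.12, 0.534, 0.409 and 0.549 CPM with oxozeaenol. The difference was thus -5.57 (SE 0.41) without and -2.05 (SE 0.30) with PI103, a change of 3.51 (SE 0.53, adjusted p 0.00594). NLRP7 went from -3.75 (SE 0.15) to -2.49 (SE 0.15), a change of 1.26 (SE 0.20, adjusted p 0.00952). In both genes PI103 with oxozeaenol stood above oxozeaenol alone, and for NLRP7 PI103 alone held 8.36, 9.38, 8.47 and 8.87 CPM against 4.44, 4.25, 5.55 and 4.13 CPM in control. The lone-agent concentrations and those in the combinations differ, so dose and the presence of PI103 cannot be told apart in this change.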

How the data were processed

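RNA was measured by stranded mRNA sequencing in 24 libraries of AGS cells, 6 groups of 4 biological replicates. The deposited values are whole-number counts of reads per gene symbol, made by the authors on GRCh38, per the submitters' processing notes; the aligner, counter, annotation and use of strand are not given in the sources used here. Groups were taken from the titles, since the treatment field numbers compound names upward in later replicates. The 5 closing tally rows were dropped, leaving 23368 symbols, and 13947 genes passed edgeR's filterByExpr and held 99.9886% of the counts.

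Counts were fitted over all 24 libraries with edgeR 4.0.16 (R 4.3.3, TMM scaling, robust quasi-likelihood F test), with 1 mean per group and Benjamini-Hochberg adjustment over all genes tested; SEs were derived from the log2 difference and its F value. CPM (counts-per-million) use TMM-scaled library sizes. Scripts were tested on simulated data. The labels call the replicate number a batch, so numbers pair the samples: the 60 same-number pairs of libraries had a mean correlation of deviations of 0.12, against -0.039 over 180 other pairs, and 0.136 for the 4 pairs compared. The fit with the number as a block was an alternative, as were DESeq2 1.42.0, other scalings, filters, a minimum change, the compared libraries alone and leaving out each replicate. Leaving out both libraries that stand apart, and upper-quartile scaling with PI103, were chosen after seeing the data.

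Members and gene lists were chosen with earlier results of these data known. Genes named in full are the 8 largest higher and 8 largest lower (called, at least 5 CPM in the higher group, no overlap), the 4 largest in each opposite direction, the 2 smallest adjusted p of each of 40 lists and fixed readouts, 103 in all, of which 3 are not reported here, leaving 100; other genes were chosen after their values were seen. Older symbols were matched through the gene tables, and 866 of 867 list symbols matched. Exon overlaps are from GENCODE release 29 and promoters from RefSeq on GRCh38.p14.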

Additional observations from a re-analysis of the deposited data

Results flagged for a closer look

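In 216 groups of 4 libraries (named genes and library measures, in the oxozeaenol and PD0325901 libraries), 25 had a highest or lowest library set apart by a gap that passes the 95% critical value of Dixon's test; chance gives about 1 in 20. PD0325901 replicate 2 was that library 11 times and oxozeaenol replicate 4 was it 7 times. In PD0325901 replicate 2, SLN (10.4 CPM, others 3.02 to 3.50), HKDC1 (20.8 CPM, others 5.22 to 5.999), TNFAIP2 (65.3 CPM), CDKN2B (155 CPM), GATA6 (166 CPM), TRIB1 (65.9 CPM), IL8 (0.343 CPM) and MAP3K7 (68.0 CPM) were above the other 3 libraries of the group. FARSB (31.2 CPM), RRM2 (137 CPM) and NOP56 (229 CPM) were below them there. In oxozeaenol replicate 4, TLR4 (9.44 CPM, others 15.2 to 16.3), ELF3 (153 CPM), TAB1 (18.9 CPM), MAPK9 (82.8 CPM) and ECT2 (218 CPM) were the lowest, and TTN (17.4 CPM, others 6.67 to 8.26) and the share of reads without a unique alignment (6.06%, others 5.16% to 5.29%) were the highest. Single flags elsewhere were TAB1 in PD0325901 replicate 4 (22.4 CPM, lowest), CXCL10 in PD0325901 replicate 4 (6.34 CPM, highest), IRF9 in PD0325901 replicate 3 (37.9 CPM, highest), TNFRSF10B in PD0325901 replicate 1 (91.8 CPM, highest), RPS6KA3 in oxozeaenol replicate 1 (118 CPM, highest) and KRT13 in oxozeaenol replicate 2 (22.2 CPM, highest). The share of reads outside genes was lowest in PD0325901 replicate 3 (4.24%, others 5.95% to 6.27%).

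The contrast between the inhibitors differed with and without PI103 for DFNA5, by 3.51 (adjusted p 0.00594, edgeR), and for NLRP7, by 1.26 (adjusted p 0.00952, edgeR).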

How the results depend on the processing

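The direct contrast gave 3976 called genes, 4333 with DESeq2, 3994 with DESeq2's size factors in edgeR, 4043 with upper-quartile scaling, 3534 without a filter on low counts, 3830 for genes of at least 1 CPM and 5067 with the replicate block. It gave 2348 in a fit of the 8 libraries alone, 2239 without both libraries that stand apart, 91 when a log2 change over 1 was tested, and 2385 (without PD0325901 replicate 2) to 4282 when 1 library was left out. With PI103, 4170 became 5075 with the replicate block, 104 with the minimum change and 2702 to 3997 with 1 library left out. The change of the contrast with PI103, 2 genes, became 7 with DESeq2, 4 with the replicate block, 4 without a filter, 1 in the libraries compared alone, 0 with the minimum change and 2 to 4 with 1 library left out. The replicate block changed the call of none of the 100 named genes. Of the 97 called, 84 kept their call in every alternative that tested them, other than the minimum change, and none reversed. The filter at 1 CPM left 98 of the 100 to test. The sign reversed for 1 of the named genes without a call, MAP3K7 (0.014 without PD0325901 replicate 2 or oxozeaenol replicate 4, 0.082 without both, down to -0.084 with another left out). Without both, HKDC1 was -2.83, SLN -4.63, KRT6A -1.09 (adjusted p 0.112, edgeR), CXCL16 -0.39 and IL8 -0.60. The causes were not tested. Depth limits genes under about 1 CPM, such as IL8 and CDH2.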
